A study of Mus musculus with 6 samples.

Results

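Interferon-stimulated genes were read in sorted mouse neutrophils as a list of 39 genes, all of which were found among the 41388 genes of the count tables by their Ensembl identifiers. The list was given by name and was chosen with earlier results of these data known. It holds 2 signalling and transcription factors, 5 RNA and nucleic acid sensors, 3 genes of the ISG15 system, 4 IFIT genes, 5 genes of the OAS family, 8 GTPases, 4 enzymes of nucleotide and RNA metabolism and 8 membrane, Schlafen and other effectors. In 35 of the 39 the counts were high enough for a test across all genes. Mx1, Mx2, Ifi44 and Ifi44l were not tested.

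Neutrophils from bone marrow of C57BL/6 mice were loaded with 250 nM DiBAC4(3), an anionic dye that enters cells as their membrane depolarizes, and then received 100 nM of the calcium ionophore ionomycin. From 2 to 4 minutes after stimulation, 20000 cells that had depolarized and 20000 that stayed polarized were sorted, and their RNA was sequenced. The 6 libraries form 3 biological replicate pairs of 1 polarized and 1 depolarized library, joined by a numeric code at the end of each title and called A, B and C in the order of that number. Values of 3 libraries are given in the order A, B and C. All cells of both groups received dye and ionomycin, and no interferon treatment and no unstimulated library is part of the comparison.

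Type I interferons bind a receptor of IFNAR1 and IFNAR2, and the kinases JAK1 and TYK2 then activate the complex ISGF3, which includes STAT2 and IRF9 and binds the interferon-stimulated response element (ISRE) in promoters of interferon-stimulated genes. Interferon-gamma acts through a different element, the gamma-activated site (GAS), and many guanylate-binding and immunity-related GTPase genes respond to both. The products sense viral nucleic acid, block translation or replication of viruses, modify proteins with ISG15, or damp the signal again.

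Promoter letters are shown first because ISGF3 acts on these genes through the ISRE. RefSeq promoters of build GRCm38.p6 (250 bases before to 50 after a start site) were available for 30 of the 39 members, with 35 start sites. The ISRE was searched as GAAANNGAAA on both strands. It was present at 19 of the 35 start sites (54.3%), against 3.44% of all 32851 promoters in the table. The GAS letters TTCNNNGAA, also searched on both strands, were present at 6 of the 35 (17.1%), against 8.30% of all promoters, and 4 of the 35 held both. In Bst2 a match of one overlapped a match of the other. Stretches of 6 members are printed 5′ to 3′ on the gene's own strand, and the capitals mark the ISRE matches, in the letters of the complementary strand where the element lies there.
Isg15 (chr4:156200845-156200926, minus strand): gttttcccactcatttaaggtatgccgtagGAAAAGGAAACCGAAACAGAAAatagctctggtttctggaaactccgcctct
Ifit1 (chr19:34640755-34640843, plus strand): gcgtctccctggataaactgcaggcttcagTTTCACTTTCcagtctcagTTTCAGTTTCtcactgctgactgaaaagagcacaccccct
Ifit3 (chr19:34583343-34583446, plus strand): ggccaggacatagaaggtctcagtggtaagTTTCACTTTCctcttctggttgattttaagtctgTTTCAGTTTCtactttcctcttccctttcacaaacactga
Ifit3b (chr19:34607739-34607842, plus strand): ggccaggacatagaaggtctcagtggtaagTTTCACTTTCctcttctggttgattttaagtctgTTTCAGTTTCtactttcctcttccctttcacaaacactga
Oas1a (chr5:120907526-120907575, minus strand): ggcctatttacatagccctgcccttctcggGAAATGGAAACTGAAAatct
Rsad2 (chr12:26456533-26456602, minus strand): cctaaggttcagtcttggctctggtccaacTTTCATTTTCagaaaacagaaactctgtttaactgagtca
Ifit3 and Ifit3b carry the same 104 letters in this stretch, with 2 separate matches, and Isg15 has 3 overlapping ones. Among tested members with a promoter entry, 14 of 22 that were called between the codes and 4 of 6 that were not called held an ISRE match. Of the 30 members with an entry, 18 held an ISRE match. Irf7, Ifit2, Oasl1 and Ifi47 were among those without a match in the window searched, which says only that these letters are not there.

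All 6 libraries were deep enough to read the members, with 16904969 to 20381489 counts each and 15527 to 16005 genes with at least 1 count. Neutrophil markers (12 genes such as S100a8, S100a9 and Ly6g) summed to 171207 to 246678 CPM (counts scaled to the library total). Mitochondrial transcripts took 0.743% and 0.699% of counts in the polarized and depolarized library of pair C and 0.547% to 0.579% in the other 4. The polarized library of pair C also had the lowest scaling factor (0.876, against 0.967 to 1.08 in the others), and within pair C the median of all tested genes differed by 0.24 log2 in raw CPM. Differences are therefore given after scaling with TMM factors, which set the typical gene to about 0, and CPM values are given as deposited.

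RNA of interferon-stimulated genes was present in every library. Of the 39 members, 34 had over 1 CPM in all 6 libraries, 4 were below 1 CPM in all, and Gbp3 lay between. Mean CPM over the 6 libraries ran from 2.52 to 370 in the tested members, with a median of 57.1. Per kilobase of transcript, Rtp4, which encodes a receptor transporter protein, had the highest level, with 120.2, 124 and 409.7 RPKM in the polarized and 151, 178 and 428 RPKM in the depolarized libraries. Isg15 followed at a mean of 75.9 RPKM, then Oasl2 at 70.3, Slfn4 at 62.96, Trim30a at 58.7 and Usp18 at 50.03 RPKM. The 4 members below the test's limit were close to absent: Ifi44l had 0 counts, Mx1 2, Ifi44 3 and Mx2 8 over all 6 libraries. A total of 3 counts over the 3 libraries of a group corresponds to 0.0536 CPM in polarized and 0.0531 CPM in the depolarized libraries. Intact Mx1 and Mx2 genes encode antiviral dynamin-like GTPases, and Mx2 is listed as a polymorphic pseudogene in GENCODE M21. Whether these mice carry intact copies of either was not examined.

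Levels of most members differed by replicate code. Both libraries of pair C lay above all 4 other libraries in 32 of the 35 tested members, against 5.46% of all tested genes. By edgeR's quasi-likelihood test over the code terms, 27 of the 35 members differed between codes at an adjusted p under 0.05, against 77 of all 9971 tested genes (0.772%). The members were chosen with earlier results of these data known. In a second list of interferon-stimulated genes, described below, 9 of 51 tested genes were called. In all 27 the fitted level of pair C was above those of A and B. Pair C was higher than A in 24 members (0.471% of all genes were called in that direction) and higher than B in 26 (0.642% of all genes), and 22 members passed in both. The median member was 2.98-fold higher in C than in A and 3.17-fold higher than in B, or 1.57 and 1.66 on the log2 scale, against 0.0078 and 0.0068 for the median of all genes. Between A and B, 0 of 35 members were called (0.0401% of all genes). The lowest adjusted p among members was 0.303, and the median difference of B minus A was -0.24 log2. DESeq2 called 1 member between A and B (0.130% of all genes). The fitted range over the 3 codes exceeded the size of the difference between depolarized and polarized cells in all 35 members, against 79.4% of all genes.

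**Figure D1:**
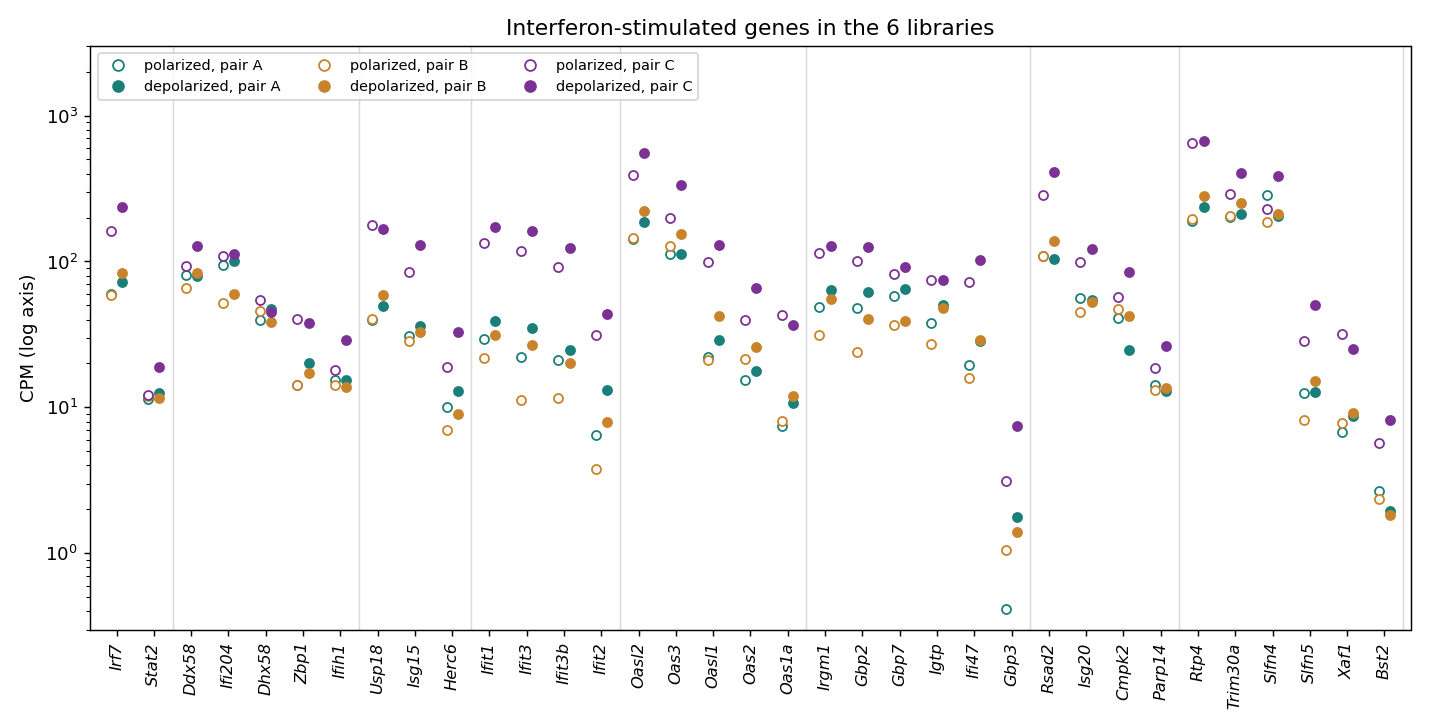
CPM on a log axis of the 35 tested members in each of the 6 libraries, grouped by role (grey lines part the roles in the order of the text), with polarized libraries as open and depolarized ones as filled circles and a colour for each pair. The purple circles of pair C lie above all others in 32 members, and Stat2, Dhx58 and Slfn4 are the exceptions.

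The IFIT genes encode proteins that bind viral RNA and block its translation, and they differed most between the codes. The 4 genes lie within 1 stretch of chromosome 19, from 34550694 (start of Ifit2) to 34650009 (end of Ifit1) in GRCm38. Ifit3 had 21.99, 11.2 and 118 CPM in the polarized and 34.8, 26.7 and 162 CPM in the depolarized libraries. It was 5.27-fold higher in C than in A and 8.94-fold higher than in B (2.40 ± 0.26 and 3.16 ± 0.27 log2 ± SE, adjusted p over both code terms = 2.01e-06). Pair C stands far above A and B in both sorted populations, and within each pair the depolarized library is the higher one. Ifit3b, a neighbouring copy of Ifit3, had 21.2, 11.6 and 92.3 CPM in the polarized and 24.8, 20.01 and 123 CPM in the depolarized libraries. Its difference was 2.28 ± 0.24 for C minus A and 2.96 ± 0.24 for C minus B (adjusted p = 2.01e-06). Of the 50-base windows of Ifit3, 51.2% also occur in Ifit3b and 44.5% of those of Ifit3b occur in Ifit3, so reads may have been assigned to either gene and the pair is uncertain as separate measurements. Of the 50-base windows of Ifit1, 7.06% also occur in Ifit1bl2, which had 22010 counts over all libraries against 7891 for Ifit1. Ifit1 showed the same order of libraries as Ifit3. It had 29.6, 21.96 and 133 CPM in the polarized and 39.1, 31.2 and 174 CPM in the depolarized libraries, and was 4.66-fold higher in C than in A and 6.55-fold higher than in B (adjusted p = 2.01e-06). Ifit2 was the least abundant of the 4, at 6.47, 3.76 and 31.2 CPM in the polarized and 13.1, 7.97 and 43.6 CPM in the depolarized libraries. Its fitted differences were 2.07 ± 0.28 (C minus A) and 2.92 ± 0.29 (C minus B), with an adjusted p of 3.10e-05.

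In the ISG15 system all 3 members were called higher in pair C than in A and than in B. ISG15 is a ubiquitin-like protein that is joined to other proteins after interferon. Isg15 had 31.00, 28.4 and 85.2 CPM in the polarized and 36.3, 32.9 and 131 CPM in the depolarized libraries, which is 3.28-fold higher in C than in A and 3.89-fold higher than in B (adjusted p = 6.06e-05). USP18 removes ISG15 from proteins and also blocks the interferon receptor. Usp18 had 39.4, 40.2 and 177 CPM in the polarized and 49.6, 59.00 and 167 CPM in the depolarized libraries. It was 4.09-fold higher in C than in A and 3.999-fold higher than in B (adjusted p = 6.14e-05), and pair C was the only pair in which the polarized library had the higher CPM. Herc6, the mouse ligase for ISG15, had 9.99, 7.05 and 18.9 CPM in the polarized and 12.95, 8.96 and 32.6 CPM in the depolarized libraries, and 13.7% of its exon bases overlap Gm45193.

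The OAS genes make or resemble the synthases of the second messenger that activates RNase L, and all 5 were called higher in C than in A and than in B. Oasl1, which has no synthase activity and limits Irf7 translation, had 22.2, 21.1 and 99.4 CPM in the polarized and 28.8, 42.3 and 129 CPM in the depolarized libraries. The difference was 2.23 ± 0.25 log2 for C minus A and 2.08 ± 0.25 for C minus B (adjusted p = 3.16e-05). Oasl2 was the most abundant of the family, at 143, 145 and 392 CPM in the polarized and 185, 221 and 551 CPM in the depolarized libraries, and differed by 1.57 ± 0.22 (C minus A) and 1.55 ± 0.22 (C minus B, adjusted p = 2.77e-04). In both genes the libraries of C lie above those of A and B without overlap. Oas1a ran from 7.40 CPM in its lowest library to 43.3 in its highest, the polarized library of C. Of its 50-base windows, 57.6% also occur in Oas1g, so its counts are uncertain. Oas2 ran from 15.3 to 65.5 CPM and Oas3 from 112 to 332 CPM, both highest in depolarized C. All 5 genes lie on chromosome 5.

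All 6 tested GTPase members were called between the codes. The guanylate-binding proteins (Gbp2, Gbp3 and Gbp7, on chromosome 3) and the immunity-related GTPases (Ifi47, Igtp and Irgm1, on chromosome 11) attack membranes around intracellular microbes. Ifi47 had 19.4, 15.8 and 71.9 CPM in the polarized and 28.7, 28.98 and 103 CPM in the depolarized libraries, and was 3.81-fold higher in C than in A and 4.52-fold higher than in B (adjusted p = 3.16e-05). Gbp2 had 47.6, 23.96 and 100.3 CPM in the polarized and 61.3, 40.3 and 126 CPM in the depolarized libraries, so that C was highest and B lowest. Irgm1 ran from 31.2 to 127 CPM, Igtp from 27.1 to 75.1 and Gbp7 from 36.5 to 91.7. Of these only Irgm1 was called in C against A, while Irgm1, Igtp and Gbp7 were all called in C against B. Shared sequence limits Igtp (11.8% of windows with Irgm2) and overlap limits Gbp7 (11.3% of exon bases with Gm43802). Gbp3 was rare, at 0.414, 1.06 and 3.11 CPM in the polarized and 1.77, 1.41 and 7.39 CPM in the depolarized libraries.

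Irf7, the transcription factor that drives interferon-alpha genes, was the called member of the signalling genes. It had 59.9, 59.2 and 162 CPM in the polarized and 72.5, 82.7 and 235 CPM in the depolarized libraries, with differences of 1.63 ± 0.21 (C minus A) and 1.65 ± 0.21 log2 (C minus B, adjusted p = 1.44e-04). Stat2, a subunit of ISGF3, was not called and its libraries overlapped: 11.5, 12.04 and 12.2 CPM in the polarized and 12.5, 11.5 and 18.9 CPM in the depolarized libraries. Among the sensors, Zbp1 (a sensor of Z-form nucleic acid) had 14.3, 14.2 and 40.2 CPM in the polarized and 20.02, 17.3 and 37.7 CPM in the depolarized libraries and was called in C against both other pairs. Ifi204, a DNA sensor of the p200 family, had a different order, with A close to C and B below both: 94.96, 51.6 and 109 CPM in the polarized and 100.0, 59.8 and 113 CPM in the depolarized libraries. It was called in C against B but not in C against A, and 14.8% of its 50-base windows also occur in Ifi211. The RIG-I-like receptor genes Ddx58, Ifih1 and Dhx58 were not called between codes. Their fitted differences of C minus A were 0.50, 0.64 and 0.24 log2.

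Rsad2 (viperin, which makes a chain-terminating nucleotide) had 109, 109 and 287 CPM in the polarized and 104, 137 and 413 CPM in the depolarized libraries. It was 3.36-fold higher in C than in A and 3.17-fold higher than in B (adjusted p = 1.42e-04). The exonuclease gene Isg20 was also called, with 56.4, 44.9 and 99.6 CPM in the polarized and 54.1, 52.8 and 122 CPM in the depolarized libraries. Cmpk2, a nucleotide kinase gene that neighbours Rsad2 on chromosome 12, was called in C against A but not over both code terms (adjusted p = 0.0645). Parp14, an ADP-ribosyltransferase gene, was not called and ran from 12.95 to 26.1 CPM.

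Of the membrane, Schlafen and other effectors 4 of 6 tested were called. Rtp4 had 189, 194 and 645 CPM in the polarized and 238, 280.3 and 673 CPM in the depolarized libraries, and differed by 1.71 ± 0.24 (C minus A) and 1.67 ± 0.24 log2 (C minus B, adjusted p = 2.75e-04). Of its exon bases, 13.9% overlap Gm45338. Xaf1, an interferon-induced promoter of apoptosis, ran from 6.78 to 31.97 CPM, Slfn5 from 8.22 to 50.5 and Bst2 (tetherin, which holds budding virions) from 1.82 to 8.22. Each was highest in a library of C. Trim30a and Slfn4 were not called. Slfn4 had 284, 185 and 227 CPM in the polarized and 204, 212 and 387 CPM in the depolarized libraries, so that polarized A lay above polarized C (adjusted p over the code terms = 0.482).

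**Figure D2:**
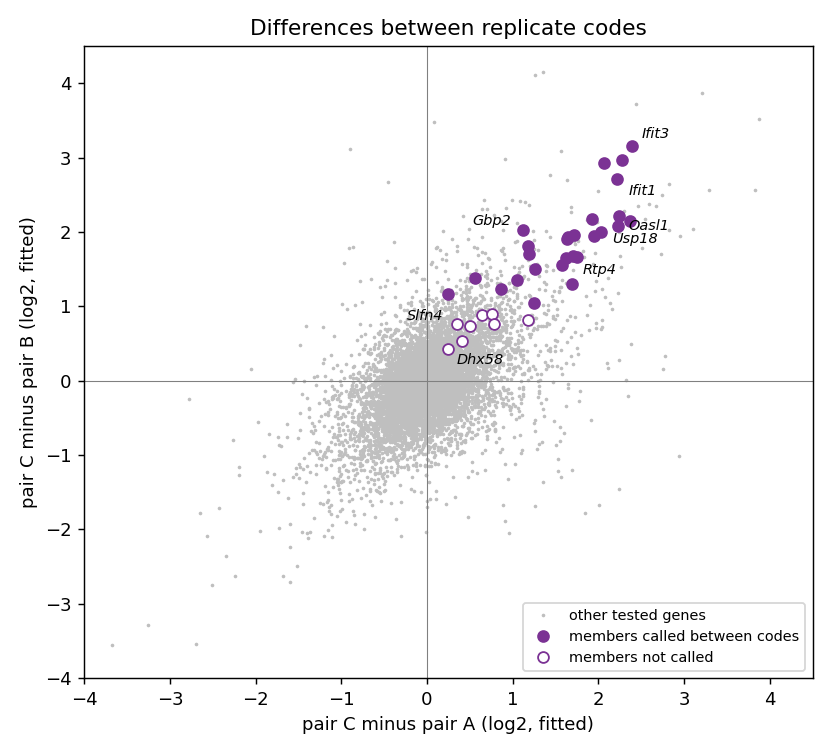
Fitted log2 differences of pair C minus pair A (x) and pair C minus pair B (y) for the tested genes in grey (the few beyond the axes are not drawn) and the 35 tested members in purple, filled where called over both code terms. All 35 members lie above 0 on both axes, and Ifit3 lies farthest out among them at 2.40 and 3.16.

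These counts depended on single libraries in part. Fits without 1 library leave 1 residual degree of freedom and take each gene's spread from the trend over all genes. Without the polarized library of A, 14 members were called in C against A, and without the polarized or the depolarized library of B, 7 and 14 were called in C against B. In these fits 0.299% of all genes were called in C against A, and 0.213% and 0.348% in C against B. Without the polarized or the depolarized library of C, 12 members were called between A and B, where 10.2% and 10.3% of all genes were called. Calls over both code terms ranged from 20 to 33 of 35 when 1 library at a time was left out. The 33 came without the polarized or the depolarized library of C, where 14.3% and 27.9% of all genes were called, and the 20 without the polarized library of B, where 0.687% were. The codes may stand for animals, days or sequencing batches, and these cannot be told apart.

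Markers of early neutrophils and promyelocytes moved with pair C in part. Of the 11 genes of this list, 7 (Mpo, Elane, Prtn3, Ms4a3, Fcnb, Chil3 and Tuba8) were highest in C within both the polarized and the depolarized libraries. Mpo (myeloperoxidase) had 13.4, 19.8 and 146 CPM in the polarized and 0.294, 0.208 and 5.86 CPM in the depolarized libraries, and Elane (neutrophil elastase) had 13.1, 39.2 and 109 and 0.147, 0.104 and 5.09 CPM. Mpo, Elane, Prtn3 and Fcnb were themselves called between codes, with C minus A at 3.87, 3.83, 2.25 and 2.75 log2. All 11 were lower in the depolarized library of every pair, and in the members the depolarized library was mostly the higher one. The summed list, most of which is Ltf and Camp, was 2783 to 5505 CPM in polarized and 1125 to 2395 CPM in depolarized libraries, with C at the top of the first range and the bottom of the second. The part of these early cells in the members' difference was not tested. Of 14 marker lists, 0 had a sum that was above, or below, the other 4 libraries in both C libraries. Plasmacytoid dendritic cells are strong producers of type I interferon, and their 9 markers summed to 2.08 to 5.93 CPM, with 7 of the 9 under 1 CPM in all libraries and Cd209d at 0. The share of mitochondrial counts was higher in both libraries of C, and its part in the result was not tested.

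No tested gene in the lists of receptors and transducers, sensing factors and negative regulators was called over both code terms, against 0.772% of all genes. In lists this short, 0 calls lies near that share. The 12 interferon genes (ligands) were at or near 0 and were not tested: 10 had no count in any library, and the others had 4 counts together. Among 12 receptor and signal transducer genes 0 were called over both code terms, and 1 (Irf9) in C against B alone. Irf9, the DNA-binding subunit of ISGF3, had 141, 127 and 262 CPM in the polarized and 171, 174 and 269.9 CPM in the depolarized libraries (adjusted p over the code terms = 0.0644). Both C libraries were above the other 4. The receptor subunit gene Ifnar1 had 44.6, 38.2 and 36.1 CPM in the polarized and 43.03, 43.1 and 49.5 CPM in the depolarized libraries, and Ifnar2 had 39.1, 50.4 and 20.95 and 25.1, 48.3 and 40.1 CPM, with overlapping pairs. The median difference of C minus A was 0.091 log2 in this list, 0.095 among 15 tested sensing and regulatory factor genes (0 called) and 0.18 among 13 tested negative regulators (0 called). In the sensing list, Irf1 had 121, 129.8 and 156 CPM in the polarized and 131, 165 and 182 CPM in the depolarized libraries, and Irf8, a factor of monocyte and dendritic cell development, 1.03, 1.17 and 1.22 and 0.196, 0.156 and 0.473 CPM.

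Further interferon-stimulated genes showed the order of the members in part. Of 51 tested genes of a second list, 9 were called between codes, all with both C libraries above the other 4: Ifi27l2a, Cxcl10, Epsti1, Oas1g, Slfn8, Ifi207, Ly6e, Ube2l6 and Gbp9. Its median difference was 0.60 log2 for C minus A and 0.65 for C minus B. Ifi27l2a, a mitochondrial protein gene induced by interferon, had 83.01, 113 and 527 CPM in the polarized and 118, 139.6 and 624 CPM in the depolarized libraries. Cxcl10, a chemokine gene for T cells, had 1.09, 0.528 and 4.33 CPM in the polarized and 0.393, 0.469 and 9.05 CPM in the depolarized libraries. Epsti1 had 16.3, 17.3 and 35.6 and 19.8, 24.1 and 50.9 CPM and Oas1g 0.362, 0.411 and 4.84 and 0.687, 1.56 and 4.44 CPM. Of the 77 genes called between codes in all, 27 were members, 9 were in this second list and 41 in no list of the pathway. The lists are not complete, so the 41 may hold further interferon-stimulated genes.

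**Figure D3:**
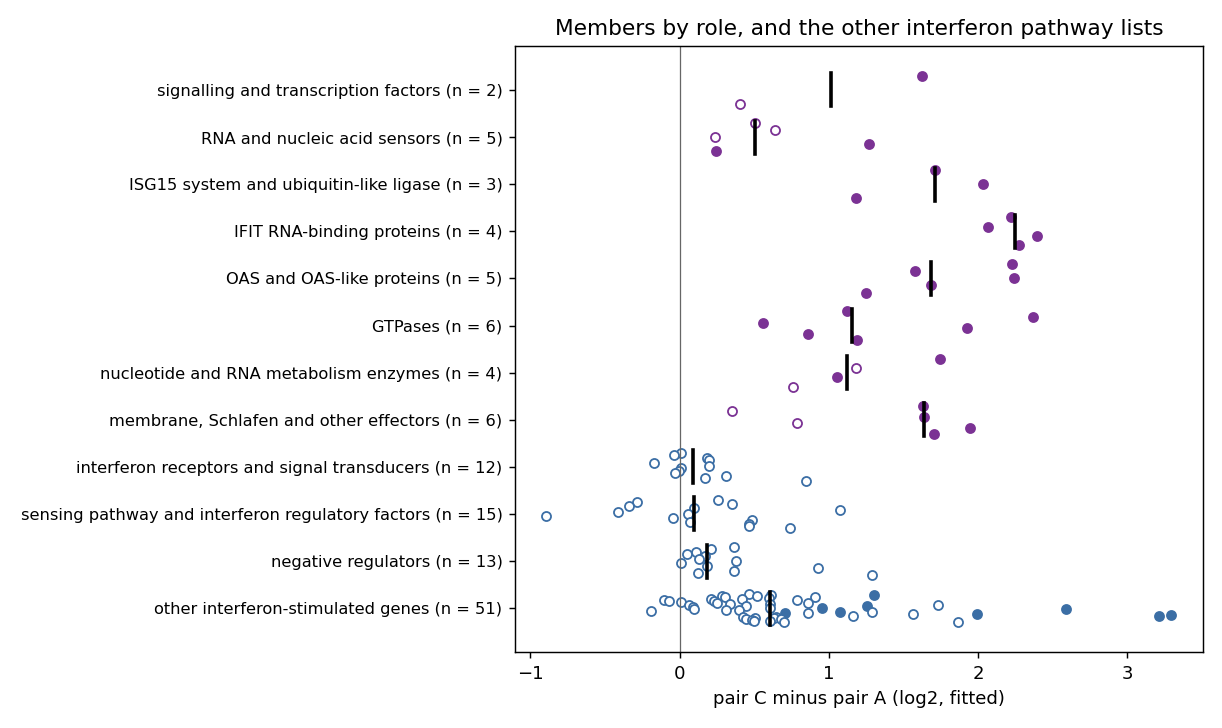
Fitted log2 difference of pair C minus pair A for each tested gene, by role for the members (purple) and for 4 other lists of the interferon pathway (blue), filled where called over both code terms, with a black bar at each median. Medians of receptors, sensing factors and negative regulators lie at 0.091, 0.095 and 0.18, and that of the IFIT genes at 2.25.

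Between depolarized and polarized cells no member was called. By edgeR's quasi-likelihood test, blocked by pair, 0 of 35 were higher in depolarized cells (0.0802% of all genes were) and 0 were lower (0.241% of all genes). At an unadjusted p under 0.05 there were 10 of 35 members, against 6.58% of all genes. DESeq2 called 0 members, against 16 genes higher and 23 lower of all 9971. It had 9 members at an unadjusted p under 0.05, against 515 of all genes. The fitted difference was above 0 in 31 of 35 members, against 49.6% of all genes, with a median of 0.24 log2 and a range from -0.18 (Cmpk2) to 1.12 (Gbp3). The groups overlapped in every member. In the 32 members with both C libraries above the other 4, this overlap follows from the difference between codes. It says nothing of the differences within pairs, and its share over all genes was not computed. The members are not independent of each other, and the median is a description.

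The differences within pairs were small beside those between codes. Depolarized cells had the higher scaled level in 30 of 35 members in pair A, 30 in pair B and 25 in pair C, with medians of 0.32, 0.30 and 0.25 log2. In raw CPM these were 27, 30 and 30 members and medians of 0.25, 0.33 and 0.48. The raw medians of all tested genes were -0.070, 0.036 and 0.24, so the raw value of pair C includes a shift of the whole library. Depolarized cells were above polarized ones in all 3 pairs in 18 of 35 members, against 12.9% of all genes. The 6 members with the lowest p were Ifit3, Ifit2, Ifi47, Gbp3, Oasl1 and Oasl2. Ifit3 had differences of 0.72, 1.21 and 0.23 log2 in pairs A, B and C, and a fitted difference of 0.71 ± 0.20 (adjusted p = 0.247). Ifit2 had 1.06, 1.02 and 0.25 within the pairs and 0.76 ± 0.23 fitted (adjusted p = 0.305). For Ifi47 these were 0.63, 0.83 and 0.29, with 0.58 ± 0.19 fitted (adjusted p = 0.385). All 3 were above 0 in each pair and smallest in C. Gbp3 differed by 1.90, 0.34 and 1.001 within the pairs and by 1.12 ± 0.41 in the fit (adjusted p = 0.502), on 8 counts in polarized A. Oasl1 had 0.44, 0.96 and 0.15 and 0.51 ± 0.19 (adjusted p = 0.550), and Oasl2 had 0.44, 0.57 and 0.26 and 0.42 ± 0.18 (adjusted p = 0.652). The most abundant members by RPKM differed by 0.24 ± 0.19 (Rtp4), 0.29 ± 0.18 (Isg15), 0.093 ± 0.20 (Slfn4), 0.21 ± 0.17 (Trim30a) and 0.20 ± 0.19 (Usp18) in the fit. Usp18 was at -0.055 without the pairs as a block, and Slfn4 at -0.13 without pair C.

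**Figure D4:**
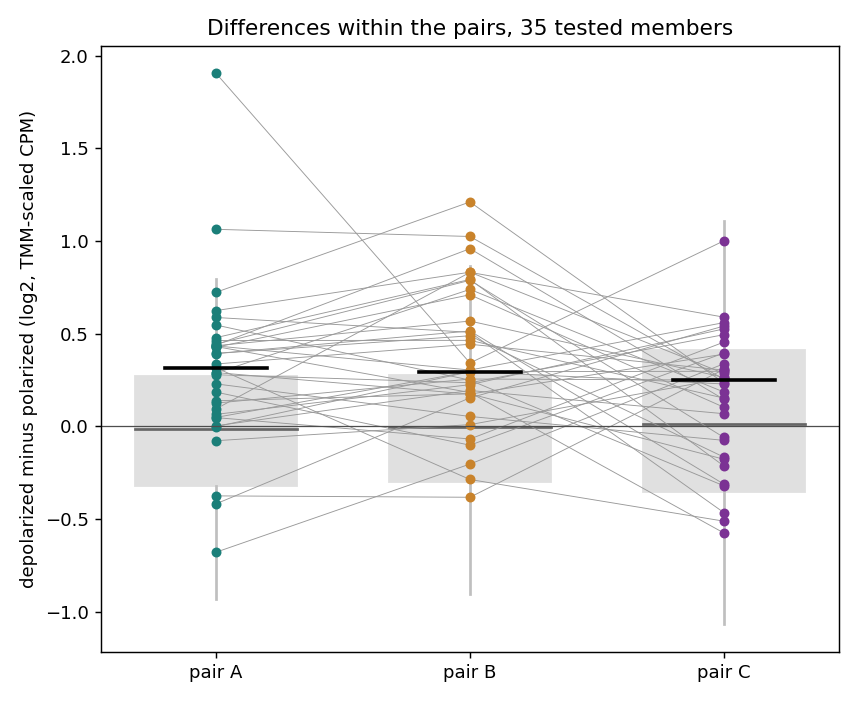
Depolarized minus polarized difference in log2 TMM-scaled CPM within pairs A, B and C for the 35 tested members (points, joined by gene; black bar, median of the members), over all tested genes (grey box, 25th to 75th percentile; thin line, 5th to 95th; grey bar, median). Member medians are 0.32, 0.30 and 0.25, and 30, 30 and 25 points lie above 0.

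Leaving out pair C raised the number of calls for members and for all genes alike. The fit of pairs A and B alone leaves 1 residual degree of freedom and takes each gene's spread from the trend over all genes. In it 13 of 35 members were called higher in depolarized cells (4.95% of 10102 genes) and 1, Cmpk2, lower (5.13%). The median was then 0.38 log2. The 13 were Irf7, Usp18, Ifit1, Ifit2, Ifit3, Ifit3b, Oasl1, Oasl2, Gbp2, Ifi47, Igtp, Irgm1 and Rtp4. In pair C the difference was below 0 in 4 of these (Usp18 -0.31, Igtp -0.21, Rtp4 -0.17 and Irgm1 -0.059), and Cmpk2 was at 0.34, above 0. Whether pair C differs from A and B in this respect was not tested. The summed monocyte and macrophage lists were higher in every depolarized library than in any polarized one, at 169 to 188 against 128 to 135 CPM for the 9 monocyte and 377 to 429 against 318 to 332 CPM for the 10 macrophage markers. These sums were carried by Csf1r, which had 112, 102 and 105 CPM in the polarized and 168, 166 and 157 CPM in the depolarized libraries, and by Adgre1 and Cd68. Other markers of the same lists had the opposite order in every pair: Ccr2, Ms4a6c and Ear2 of the monocyte and C1qa, C1qb, C1qc and Axl of the macrophage list. These were much rarer. Ccr2, Ms4a6c, C1qa and C1qc reached at most 1.55, 2.19, 1.35 and 1.88 CPM in any library. C1qb and Axl ran from 1.46 to 12.6 and from 1.12 to 7.40 CPM, and Ear2 from 8.64 to 25.2 CPM. The summed neutrophil, early neutrophil and T and NK cell lists were lower in every depolarized library than in any polarized one. In the T and NK cell list this was so of Nkg7, at 2.17, 2.64 and 11.7 against 0.0491, 0.0521 and 0.710 CPM. It was also so of Trac and Lck, which were under 1 CPM in all libraries. It was not so of the list's most abundant gene Cd3d, at 19.6, 17.8 and 14.4 against 20.7, 20.1 and 13.9 CPM. Of the 12 neutrophil markers, 7 were lower in the depolarized library of every pair and 1, Csf3r, was higher in every pair. Of 11 late neutrophil markers, 6 were higher in every pair and 1, Mmp8, was lower. The late neutrophil sums overlapped, at 26944 to 30075 CPM in polarized and 27954 to 31146 CPM in depolarized libraries. The part of these lists in the members' differences was not tested. In sorted bulk samples a change in the mix of cells and a change of RNA per cell cannot be told apart.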

How the data were processed

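RNA of 6 sorted neutrophil populations was sequenced. Each library has a table of 41388 genes. The authors deposited unnormalized, whole read counts. Recomputing CPM from them gave the deposited CPM, and the authors' RPKM values are these CPM per kilobase of the listed gene length. The tools were bcl2fastq, STAR (2.0.4b), Subread and featureCounts (1.45) on GRCm38, per the submitters' processing notes. The annotation release, strand setting and handling of multiply mapping reads were not stated in the sources used here. Reads of overlapping genes and near-identical copies therefore could not be told apart. Symbols were matched for 40254 genes, and the other 1134 held 0.131% of counts.

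Counts were tested in R 4.3.3 with edgeR 4.0.16: filterByExpr by group, scaling by TMM, and a quasi-likelihood F test on a design with code and group, over 9971 genes, with Benjamini-Hochberg adjustment at 0.05. Group differences are depolarized minus polarized. The code test covers both code terms together, and single differences between codes were adjusted over all genes each. Standard errors are approximate (difference divided by the square root of F). The fit was run on simulated data with changes far larger than the members' median group difference. That run says nothing of how often differences as small as the members' would be called. DESeq2 1.42.0 was an alternative, with others scaling, filtering, dropping the block or the group term and leaving out libraries. Removal of the gene length trend was added after seeing the data.

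Pairing rests on the design text. The correlation of deviations from the group means within a code was 0.075 (A), 0.27 (B) and 0.033 (C), and for C it was below the 0.135 found with another code. P-values measure the spread between these libraries left by code and group, drawn toward the trend over all genes. The main fit had 2 residual and 14.7 prior degrees of freedom. The prior was infinite without the filter and in the fits that left out a pair or a library. There the spread was taken wholly from that trend, and a gene's own spread was not used. The titles hold a run label, run 1 in depolarized B and run 2 in the other 5. No label explains it, and it was not entered as a batch. All replicate libraries differed by more than sampling noise. Floors cover counting error only.

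The members and lists were chosen with earlier results of these data known. Statistics were given for up to 10 members with the lowest p over the codes, 6 with the lowest group p, 6 with the highest mean RPKM, up to 4 called genes per pathway list, and Irf9, Ifnar1, Ifnar2, Irf1 and Irf8. A further gene of that rule is not reported here. Of 59 genes in the second list of interferon-stimulated genes, 56 were found. Copies were sought as shared 50-base windows of GENCODE M21 transcripts, and promoter sequences are from RefSeq.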

Additional observations from a re-analysis of the deposited data

How the results depend on the processing

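The 3 pairs leave 2 residual degrees of freedom, and a difference between codes rests on 2 libraries per code. Calls of members over both code terms ran from 20 (0.687% of all genes called) to 33 (14.3% and 27.9%, without 1 library of C) over all alternatives that allow the test, against 27 (0.772%). They were 24 without the group term (0.421%) or with the gene length trend removed (0.562%), and 29 with DESeq2 (1.08%). Leaving out 1 library at a time, calls for C higher than A ranged from 14 (0.299% of all genes) to 30 (4.17%, without polarized C). For C higher than B they ranged from 7 (0.213%) to 33 (2.36% and 12.8%, without 1 library of C). Between A and B they ranged from 0 (0.0962% to 0.203%) to 12 (10.2% and 10.3%, without 1 library of C), and DESeq2 gave 1 (0.130%). Leaving out 1 pair, members called higher in depolarized cells ranged from 0 to 13 (4.95% of all genes, without pair C). Those called lower ranged from 0 to 1 (5.13%, without pair C), and the median difference from 0.19 to 0.38 log2. Without the replicate block the median was 0.22 and Usp18 turned to -0.055. Between groups 0 members and 0 of all genes were called in that fit. At an unadjusted p under 0.05 there were 0 members and 511 of all 9971 genes. Slfn4 ranged from -0.13 to 0.35 when 1 pair was left out. The cause of these shifts was not tested. Of the other values of single members, 251 kept direction and call and 7 gained a call, all without pair C.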

Other observations

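Of the 41 genes called between codes outside the interferon lists, 19 had both C libraries above the other 4. Absence from these lists does not mean that a gene is unrelated to interferon. The 41 include Ifit1bl1, Ifi206 and Ifi27, and also Gm13822, which overlaps Oasl1 on the opposite strand. The genes named next were chosen after their values were seen. Ifit1bl1 had 9.21, 9.92 and 32.4 CPM in the polarized and 9.57, 8.34 and 39.3 CPM in the depolarized libraries of A, B and C. Gm12250 had 4.09, 3.41 and 17.8 and 4.46, 6.20 and 23.01 CPM in the same order, and Plac8 72.6, 99.9 and 196 and 61.4, 79.7 and 198 CPM. Tsc22d3, a glucocorticoid-induced gene, had 246, 214 and 527 and 301, 296 and 577 CPM. Mpo, highest in C within each group but low in all depolarized libraries, had 13.4, 19.8 and 146 CPM in the polarized and 0.294, 0.208 and 5.86 CPM in the depolarized libraries. Txndc12 was high in pair B, with 18.01, 65.8 and 20.4 and 19.3, 83.96 and 21.4 CPM. Plekhh2 reached 1719 CPM in polarized C alone, against 0.730 to 87.1 CPM elsewhere.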
